A study of Bos taurus with 2 samples.

Results

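*UCP2* and *UCP3* encode uncoupling proteins, carriers of the mitochondrial inner membrane, and their transcripts were examined in the longissimus thoracis (LT) muscle of fetal calves. The probes of these genes were found through the RefSeq accession that the array design gives for each probe. They are 4 of the 43653 probes on the array, 2 for *UCP2* (NM_001033611) and 2 for *UCP3* (NM_174210). Both genes were chosen by their low log2 LN/HN on these same arrays, so their values are a description and no test is built on them. Japanese Black cows carrying fetuses of the same sire received either 60% of their requirement (the low-nutrition group, LN) or 120% of it (the high-nutrition group, HN). The diets were fed during gestation and the period before pregnancy, and male-sorted semen was used for all cows. Fetuses were taken at 8.5 months of gestation (day 260 ± 8.3). The RNA of 4 LN fetuses, those with the lowest body weight (BW), was pooled on 1 Agilent array, and that of 4 HN fetuses, those with the highest BW, on another. Diet and the selection on BW therefore cannot be told apart. No group fed the full requirement was included, and with 1 array per pool the arrays give no spread between fetuses and no p-value was possible.

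Uncoupling proteins belong to the SLC25 family of mitochondrial carriers. *UCP1*, the founding member, lets protons back across the inner membrane of brown adipocytes so that respiration gives heat. *UCP3* is found mainly in skeletal muscle, heart and brown fat, and in adult muscle its transcript is known to rise in fasting and when fatty acids are abundant, through the nuclear receptors of the PPAR family. *UCP2* is found in many tissues and is abundant in immune cells, and its product has been described as a carrier of four-carbon metabolites. Both proteins have been linked to the control of mitochondrial superoxide, but neither has the thermogenic role of *UCP1*.

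The arrays report hybridization signals with a flag for spots well above background, a mark that 74.5% of spots had in HN and 70.9% in LN. Signals were brought to a common scale by quantile normalization and are given as log2 values, and a change is the log2 LN/HN, negative where the LN pool was lower. Where a probe was dim on 1 array, its value there was set to the lowest signal marked well above background on that array, or to its own where higher. Where the lowest signal was used, the fold is given as at least that large. Signals of different probes depend on the probes and are not compared with each other. The 8 spike-in RNAs well above background on both arrays gave log2 LN/HN values from -0.08 to 0.05. Defining transcripts of skeletal muscle were present in both pools. All 13 muscle markers on the array were detected. They had a median change of -0.12, with *MYH1* (-0.50) and *MYH8* (0.35) at the ends.

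The qRT-PCR primers that the study lists for *UCP2* are shown because they were designed on NM_001033611, the accession of both *UCP2* probes on the array. The study lists none for *UCP3*, and the qRT-PCR values were not analysed here.
UCP2 forward primer: ctacgacctcatcaaggacactc
UCP2 reverse primer: ttcatgtatctcgtcttgaccacg

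*UCP3* was lower in the LN pool by both of its probes. For probe A_73_108686, the deposited signal dropped from 231.9 (HN) to 53.7 (LN). The software's error of these signals was 23.2 and 5.62, and the spot was well above background on both arrays. After normalization these became 7.87 (HN) and 5.75 (LN) on the log2 scale, which differ by -2.12. The LN signal was thus 4.34-fold lower. The error that the software gives for both spots corresponds to 0.21 on the log2 scale. Of the 30639 probes well above background on both arrays, 3 (0.00979%) were past 4-fold lower in the LN pool. This *UCP3* probe was one of them and ranked 3 by its fall, behind the transcript listed as ENSBTAT00000023729 and the probe of *ANGPTL4*, both of which are named here because they alone fell further.

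The other *UCP3* probe, A_73_P260186, had a signal of 33.4 (HN) and 7.06 (LN), with errors of 3.54 and 1.59. It was well above background only in the HN pool, although the LN spot was still positive and significant against its own background. Normalized, the probe stood at 5.03 (HN) and 2.91 (LN). The LN value was just above the LN limit of 2.82 and was used as measured. The signal was thus 4.35-fold lower (log2 LN/HN -2.12), and the software's error on the log2 scale was 0.36. The flag was among the values that chose these genes, so its share is given as a description. Over the whole array, 1852 of the 32491 probes well above background in the HN pool (5.70%) were dim in the LN pool. Among the 3525 of them within 0.5 log2 units of the HN signal of A_73_P260186, the number was 2 (0.0567%), this probe and a probe of *BOLA-DQB*, which is named after its value was seen. The mean of both *UCP3* probes, 1 of them dim in the LN pool, was -2.12, a 4.35-fold fall. *UCP3* ranked 4 of 19554 genes with a fold. Of these genes, 56 (0.286%) were past 2-fold lower in the LN pool.

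**Figure D1:**
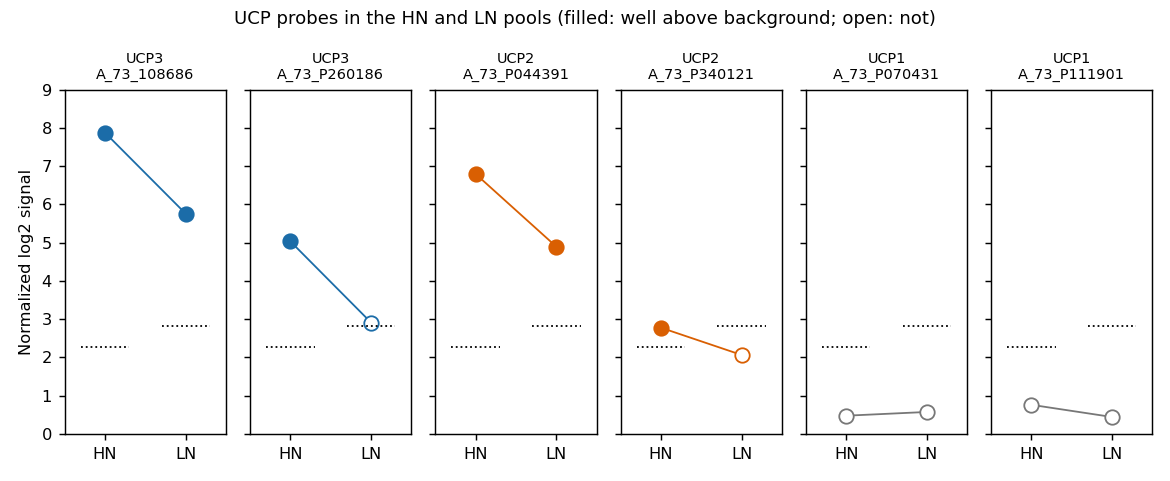
Normalized log2 signal (vertical axis) of each probe of *UCP3*, *UCP2* and *UCP1* in the HN and LN pools, with 1 array per pool and no error bars. Filled points were well above background, open points were not, and dotted lines mark the lowest signal well above background on each array (2.27 for HN and 2.82 for LN). Both *UCP3* probes and A_73_P044391 of *UCP2* fall by about the same distance, and both *UCP1* probes lie under the limits.

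*UCP2* was lower in the LN pool by the probe that could be measured, and the other probe could not give a fold. For A_73_P044391, the signal dropped from 111.2 (HN) to 29.2 (LN), with errors of 11.2 and 3.26, and the spot was well above background on both arrays. Its normalized log2 signals, 6.80 (HN) and 4.89 (LN), differ by -1.90, a 3.73-fold fall. The software's error on the log2 scale was 0.22. This probe ranked 4 by its fall among the 30639 measured probes, next after that of *UCP3*. The authors' own normalized value, which is on a log2 scale as judged from the values, was 7.36 (HN) and 5.50 (LN) for this probe, a change of -1.86.

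The second *UCP2* probe, A_73_P340121, was near the detection limit in both pools. Its signal was 7.35 (HN) and 3.81 (LN), with errors of 1.36 and 1.49. It was well above background only in the HN pool, where its log2 signal of 2.78 lay under the LN limit of 2.82, so no fold was given. As measured, the log2 LN/HN was -0.71. Loss of the flag is common at this HN signal, since 1498 of the 2466 probes within 0.5 log2 units (60.7%) were dim in the LN pool. The value of *UCP2* thus rests on 1 probe, and *UCP2* ranked 5 of 19554 genes, after *UCP3*. The ranks depended on the setting. Over all settings *UCP2* ranked 4 to 325, the last with probes positive and significant on 1 array, and *UCP3* ranked 3 to 33, the last with dim values as measured. Where the settings let A_73_P340121 count, the mean of both probes was closer to 0. Using dim values as measured gave -1.31. Scaling each array to its 75th percentile gave -1.08 and leaving out the normalization gave -1.04, but there the dim probe stood at its limit (-0.19 and -0.16), so these means are falls of at least that size. Without normalization or a limit, the log2 LN/HN of A_73_P340121 was -0.95 with a software error of 0.62.

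Few probes of similar signal fell as far, but both genes were chosen by their low log2 LN/HN, so these counts are a description. Within 0.5 log2 units of the mean signal of the *UCP2* probe A_73_P044391, 7 of 3526 measured probes (0.199%) were past 2-fold lower in the LN pool, and 0 fell more than this probe. Around the *UCP3* probe A_73_108686 the count was 6 of 3438 (0.175%), and 1 probe, that of *ANGPTL4*, fell more. The middle 95% of the probes lay between -0.51 and 0.55 around the *UCP2* probe and between -0.49 and 0.46 around the *UCP3* probe. Probes printed in several spots with a signal in the range of these probes (9 probes) had an SD of 0.09 between spots in the log2 LN/HN. These figures cover the array measurement and not the variation between fetuses. The spots around each member probe had medians near 0. Within 6 rows and 3 columns, the median log2 LN/HN was 0.01 over 62 spots for A_73_108686, 0.04 over 58 spots for A_73_P260186, -0.03 over 57 spots for A_73_P044391 and 0.09 over 65 spots for A_73_P340121. The lowest nearby spots were at -0.94, -0.53, -1.14 and -0.57, in the same order.

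**Figure D2:**
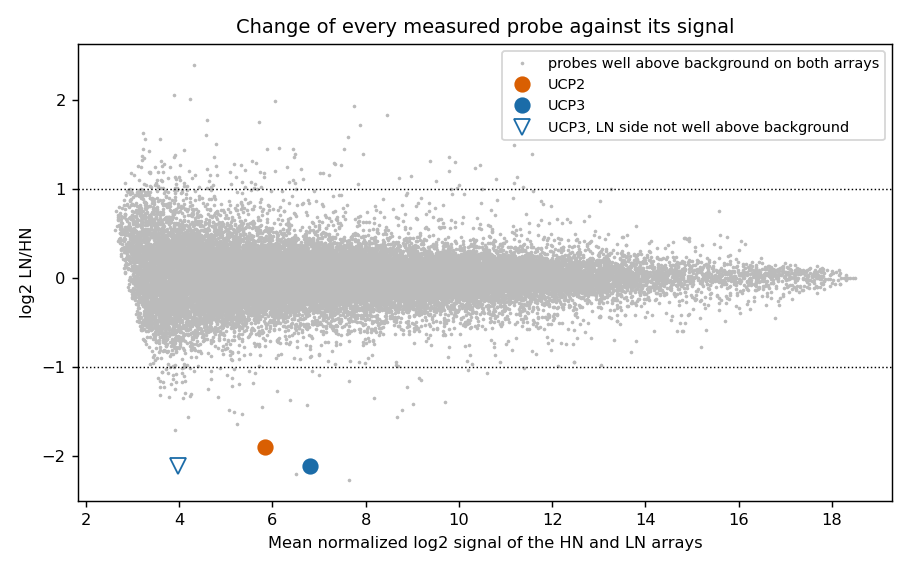
Log2 LN/HN (vertical axis) of the 30639 probes well above background on both arrays against their mean normalized log2 signal in both pools (horizontal axis), with dotted lines at a 2-fold change. The measured probes of *UCP2* (-1.90) and *UCP3* (-2.12) lie at the lower edge of the cloud of probes, and the open triangle is the *UCP3* probe A_73_P260186, whose LN signal was dim.

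The changes of both genes were close where each was measured. The log2 LN/HN of *UCP2* minus that of *UCP3* was 0.22, about the size of the software's error of a single probe, and the difference was not tested. With dim values as measured, where the dim *UCP2* probe enters the mean, the difference was 0.81. Scaling to the 75th percentile and leaving out the normalization each gave 1.13, with that probe at its limit. *UCP2* and *UCP3* are similar in sequence, and whether their probes bind each other's transcript was not tested, since the probe sequences were not used here. *UCP3* was past 2-fold lower in every setting that gave a value except normexp background correction with an offset of 50, and *UCP2* in every setting except normexp with an offset of 50 or 1. With the offset of 50, which is added to every signal and weighs most on faint ones, the log2 LN/HN was -0.86 for *UCP3* and -0.50 for *UCP2*, and with an offset of 1 it was -1.48 and -0.92. Each of these values includes a probe that was dim in the LN pool, at the limit or at its own value where higher.

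**Figure D3:**
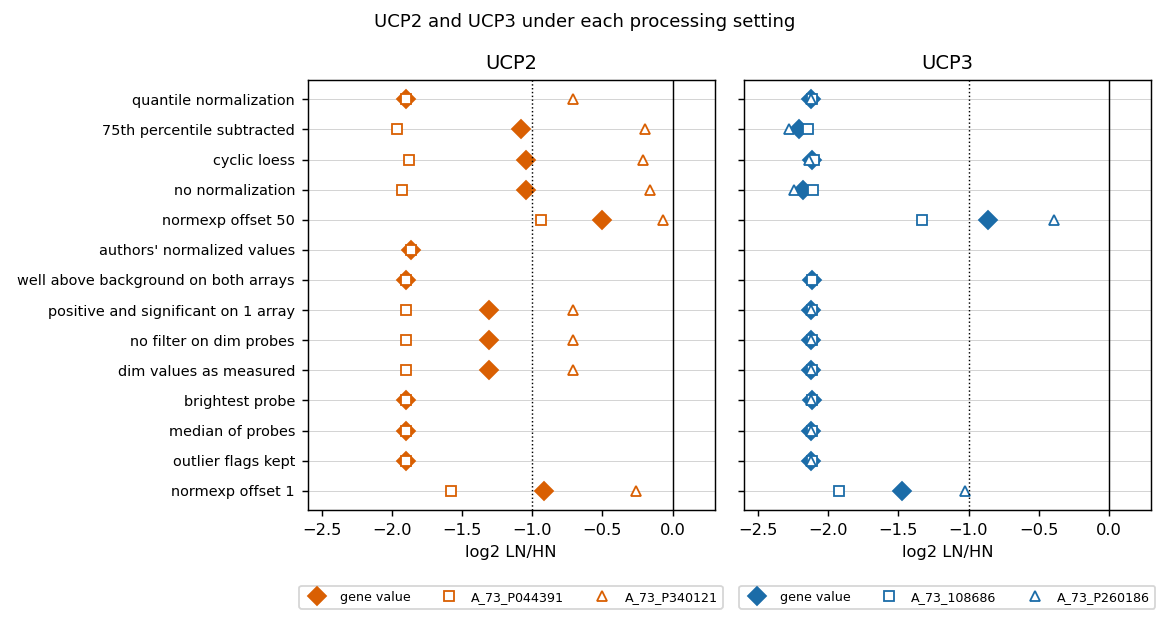
Log2 LN/HN (horizontal axis) of *UCP2* (left) and *UCP3* (right) under quantile normalization and 13 other settings (vertical axis), with the gene value as a filled diamond and the probes as open squares and triangles. The dotted line marks a 2-fold fall. The measured probe of each gene stays near -2 except with normexp at an offset of 50 and, for *UCP2*, also at an offset of 1, and the gene value of *UCP2* moves where its dim probe is counted. Under quantile normalization the triangle of *UCP2* is the value as measured (-0.71) and is not in the gene value. The authors' table used here gives no value for *UCP3*.

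The other members of the family with a fold lay between -0.14 and 0.81. *UCP1* was dim on both arrays by both of its probes, with deposited signals of 1.29 (HN) and 1.59 (LN) for one and 1.70 (HN) and 1.47 (LN) for the other, at the level of the negative controls (median 1.24 in HN and 1.51 in LN). *SLC25A27* (UCP4), a carrier best known from brain, stood at 2.94 (HN) and 3.75 (LN) on the log2 scale, a rise of 0.81, and the software's error was 0.34. It was the one other member past 0.32 on the log2 scale, the smaller threshold used here, on the higher side, where 8.85% of all genes were, and its value ranged from 0.09 to 0.95 over the settings. *SLC25A14* (UCP5), also known from brain, had -0.14. *SLC25A30*, a kidney mitochondrial carrier close to UCP5, had 0.23 as the mean of 2 probes (0.07 and 0.39). Of the adenine nucleotide and phosphate carriers, which serve ATP synthesis and of which the former also carry a proton leak, 4 of 5 had a fold and 0 were past 0.32 in either direction (18.0% of all genes were). *SLC25A4*, the main adenine nucleotide carrier of muscle, hardly differed, at 15.76 (HN) and 15.78 (LN) on the log2 scale.

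*UCP2* and *UCP3* lie next to each other on the same bovine chromosome, with 0 protein-coding genes between them in the RefSeq gene table of assembly ARS-UCD2.0. The array design refers to UMD 3.1, so the order of genes is given without coordinates. Of the 5 nearest genes with a probe on each side, 9 of 10 had a fold, and *C2CD3*, which follows *UCP3*, was dim on both arrays. The log2 LN/HN of the 9 ranged from -0.20 (*MRPL48*, a mitochondrial ribosomal protein) to 0.31 (*RAB6A*, a GTPase of Golgi traffic), and 0 were past 0.32 in either direction. The 3 probes of *RAB6A* ranged from 0.04 to 0.76, and its value with cyclic loess was 0.34, past that threshold. *DNAJB13*, the neighbour of *UCP2*, had log2 signals of 3.60 (HN) and 3.74 (LN), and *PPME1*, a methylesterase of protein phosphatase 2A, had 8.74 in both. Of all genes, 18.0% were past 0.32 in either direction, so a count of 0 among 9 genes is near the background.

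**Figure D4:**
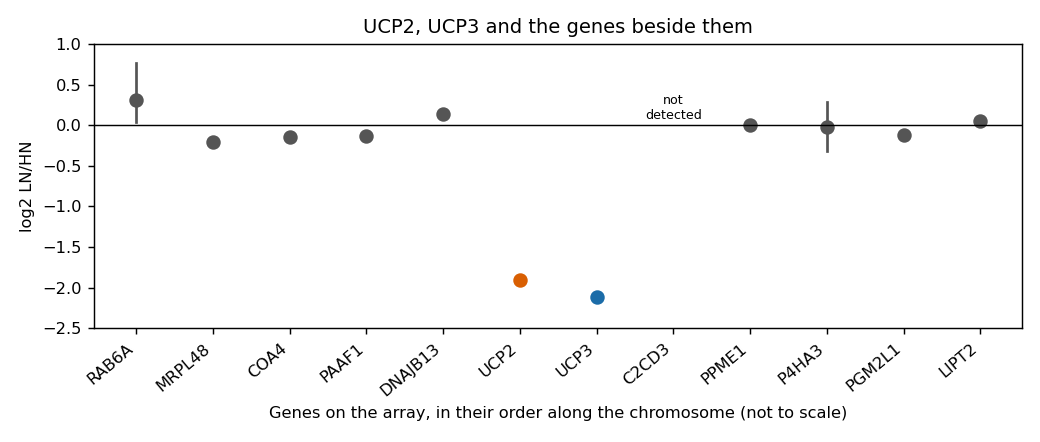
Log2 LN/HN (vertical axis) of *UCP2*, *UCP3* and the 5 nearest genes with a probe on each side, in chromosomal order and not to scale (horizontal axis). Points are gene values and vertical lines span the probes of a gene. *UCP2* (-1.90) and *UCP3* (-2.12) lie below their neighbours, which range between -0.20 and 0.31.

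Genes known to respond to PPARs and fatty acids were also lower in the LN pool, by smaller amounts in most cases. In a list of 22 such genes without *UCP2* and *UCP3*, 20 had a fold and 17 of these were below 0. Their median was -0.33, against -0.0033 over all genes, and it ranged from -0.34 to -0.25 over the settings. More than 0.32 lower were 11 of them (9.11% of all genes were), and 3 of these were past 2-fold lower (0.286% of all genes were). These 3 were *ANGPTL4* (-2.20), an inhibitor of lipoprotein lipase, *PDK4* (-1.28), a kinase that shuts off pyruvate dehydrogenase, and *MLYCD* (-1.22), which degrades malonyl-CoA and so relieves the inhibition of fatty acid uptake by mitochondria. With normexp and an offset of 50, *PDK4* (-0.84) and *MLYCD* (-0.45) were no longer past 2-fold, and with an offset of 1 *MLYCD* (-0.95) was not. *PLIN2*, a coat protein of lipid droplets, had the largest rise of the list (0.54). The list was written with earlier results of these arrays known, and the study itself names several of its genes from these arrays, so its direction is not independent evidence.

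Of the receptors and cofactors themselves, only a part could be measured. Of the 20 genes listed, 6 (*RXRA*, *PPARGC1B*, *ESRRB*, *ESRRG*, *THRB* and *FOXO1*) had no probe matched to them here. They have no value, although the study itself names *RXRA* among the changed genes of these arrays, so the counts do not cover it. A fold was found for 14, and 1 was more than 0.32 lower, which is near the share of 9.11% over all genes. This was *RXRG*, a retinoid X receptor of muscle and a partner of PPARs, at 6.84 (HN) and 6.32 (LN) on the log2 scale, a change of -0.52. *PPARD*, the main PPAR of muscle, had a log2 LN/HN of -0.12, which was 0.0039 with dim probes included, *PPARG* of -0.15, and *PPARGC1A*, the coactivator that drives mitochondrial biogenesis, of 0.24. *PPARA* had 0.29, but was below 0 with both normexp corrections (-0.12 at the lowest). The median of the 14 was -0.05.

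Genes of the processes to which uncoupling proteins have been linked had medians near 0. All 10 genes of the mitochondrial defence against superoxide and peroxide had a fold, their median was 0.01 and 0 were past 0.32 in either direction, where 18.0% of all genes were. *SOD2*, the mitochondrial superoxide dismutase, had a log2 LN/HN of 0.10, and *PRDX3*, a mitochondrial peroxiredoxin, had the highest value (0.30). Without normalization *PRDX3* was at 0.34, past that threshold. For glutamine and four-carbon oxidation, 9 of 11 genes had a fold, with a median of 0.0007 and 0 past 0.32. The sign of the first median turned under 1 setting and that of the second under 2. *GOT2*, the mitochondrial aspartate aminotransferase, had a log2 LN/HN of 0.04.

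**Figure D5:**
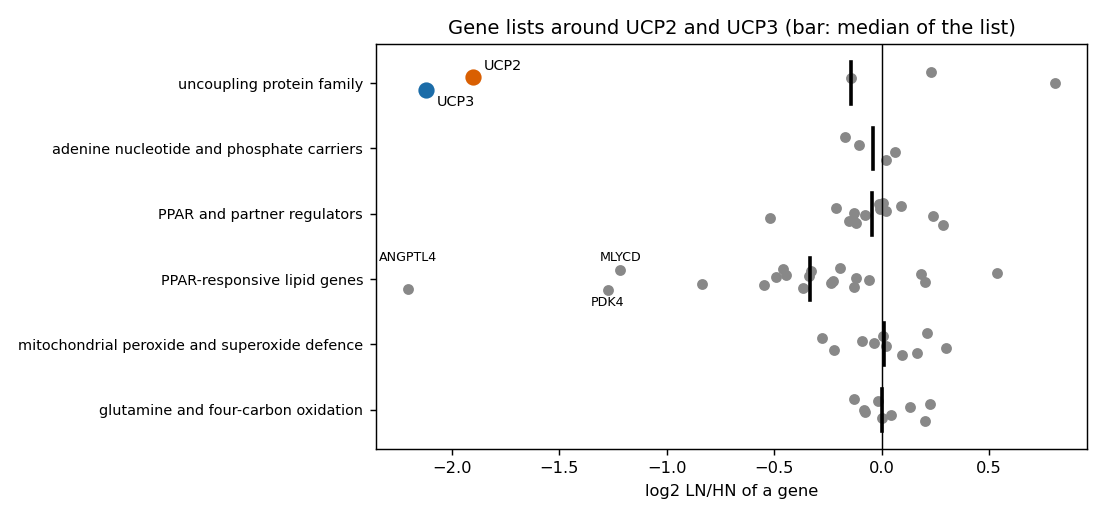
Log2 LN/HN (horizontal axis) of each gene with a fold in 6 gene lists (vertical axis), with a bar at the median of each list. *UCP2* (-1.90) and *UCP3* (-2.12) and the 3 lowest genes of the PPAR-responsive list are labelled, and the other lists lie around 0.

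Markers of other cell types were set beside these values. In bulk muscle, fewer cells of a type and less RNA per cell cannot be told apart. Because *UCP2* is abundant in macrophages, 12 macrophage markers were examined, of which 11 had a fold and 10 were lower in the LN pool. They had a median of -0.24, with 4 more than 0.32 lower (9.11% of all genes were), and their signals summed to 7958 (HN) and 6360 (LN). Sums of this kind, here and below, follow the genes with the brightest probes and are not amounts of a cell type. The lowest was *CD74* (-0.58), the invariant chain of MHC class II, while *CD163* ranged from -0.09 to 0.07 over the settings. Of all 19554 genes, 9906 were below 0 and 9636 above. Of the endothelial markers, 7 of 8 were below 0 with a median of -0.21 (summed signal 7412 in HN and 6053 in LN), but 1 of 8 was more than 0.32 lower, near the share over all genes. Of the lymphocyte markers, 5 of 7 were below 0 with a median of -0.15 (2154 and 2028), and 2 were more than 0.32 lower (9.11% of all genes were). These were *CD2* and *LCK*, which ranged from -0.58 to -0.10 and from -0.61 to -0.19 over the settings. In the adipocyte list, *LEP* and *UCP1* were dim on both arrays, and the 5 genes with a fold had a median of -0.06 (summed signal 728.9 and 815.8), which was above 0 with the brightest probe of each gene. Erythroid markers had a median of -0.11 (6 genes, 24309 and 23446), close to that of the muscle markers (-0.12). Of them, 0 were past 0.32 in either direction, where 18.0% of all genes were, so this count is near the background. Of the neutrophil markers, 5 of 8 were more than 0.32 higher (8.85% of all genes were) and 2 more than 0.32 lower (9.11% of all genes were), with a median of 0.68 (618.0 and 1141). The part of these cell types in the values of *UCP2* and *UCP3* was not tested.

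The genes whose change was nearest to that of *UCP2* and *UCP3* were sought among 5736 genes with a symbol and at least 2 probes, all of them measured on both arrays. *ANGPTL4* (-2.20) has 1 probe and was therefore not among them, although its change was nearer to both than those of the 3 genes given next. The likeness is the difference in log2 LN/HN over 2 arrays, which is a weak measure. *PDK4* was nearest to both, at 0.63 from *UCP2* and 0.84 from *UCP3*, and its 8 probes ranged from -1.57 to -0.97. *CHRDL2*, a secreted BMP antagonist, came second at -1.22 (2 probes at -1.43 and -1.02), and then *LOC782922* (-1.19).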

How the data were processed

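Total RNA of fetal LT muscle, pooled from 4 fetuses per group, was labelled with Cy3 and hybridized to Agilent Bovine (v2) 4x44K arrays. The authors extracted the spots with Feature Extraction 11.0.1.1 and deposited intensities that are background-corrected but not normalized between arrays. Quantile-normalized values from GeneSpring GX were deposited by the authors too, in a table taken here as log2 from its range. The deposited software scores also include the pixel SD of each local background. Here, log2 intensities of 43803 non-control spots were quantile normalized with limma 3.58.1 (R 4.3.3), 13 spots with an outlier flag were removed, and spots of a probe were averaged. Of the 43652 probes left, 32775 were well above background on at least 1 array. Genes were given the mean over their detected probes for which a fold could be formed. Symbols came from the RefSeq gene table of ARS-UCD2.0 (26742 probes, 12603 symbols). Python 3.11.15, numpy 2.4.6, pandas 2.3.3 and matplotlib 3.10.9 were used. The number of arrays limits the precision, and no test was possible.

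*UCP2*, *UCP3*, the 13 gene lists (145 entries, written by hand, with 1 further gene not reported here) and the rules for neighbours and nearest genes were chosen with earlier results of these data known. Named genes are the members, list genes, the 5 neighbours with a probe on each side and the 3 nearest genes in change. Of 13 alternatives, 12 were planned and normexp with offset 1 was added after seeing the data. The normexp corrections used the median pixel signal, because the scanner files used here hold no mean signal. On simulated data, used to test the procedure, 99.5% of 200 changed genes were recovered past 2-fold and 0 of 19100 unchanged genes passed it. The changed genes were drawn from brighter signals and given folds larger than the threshold. The noise was set by hand, and no variation between fetuses was simulated. These shares therefore check the steps and are not error rates for these arrays.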

Additional observations from a re-analysis of the deposited data

How the results depend on the processing

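*UCP2* and *UCP3* were lower in the LN pool under all 13 alternatives that gave a value (12 for *UCP3*, for which the authors' table used here holds no probe). A value was taken as moved where it differed by more than the SD of a single spot (0.086). For *UCP3* this was so with the 75th percentile subtracted (-2.21), normexp with offset 50 (-0.86) and normexp with offset 1 (-1.48). For *UCP2* it was so with the 75th percentile subtracted (-1.08), cyclic loess (-1.04), no normalization (-1.04), normexp with offset 50 (-0.50) and offset 1 (-0.92), and with probes positive and significant on 1 array, no filter on dim probes or dim values as measured (-1.31 in each). The difference between the genes moved in the same settings, to 1.13, 1.07, 1.13, 0.36, 0.56 and 0.81. In all of these settings the dim *UCP2* probe entered the mean. With the 75th percentile, cyclic loess and no normalization it entered as a limit, so that *UCP2* was lower by at least the value given, and the difference rests on that limit. With normexp it entered at the limit or at its own value where higher. The cause of the smaller values of the other probes with normexp was not tested. The number of genes past 2-fold, 195 with quantile normalization, was 13 and 83 with the normexp offsets of 50 and 1, 124 with probes well above background on both arrays, 1320 with probes positive and significant on 1 array, 1190 without a filter and 466 with dim values as measured. That past 0.32 on the log2 scale, 3512, was 710, 6906 and 6843 with the normexp offset of 50, positive and significant probes and no filter. Subtraction of the 75th percentile moved the division of the genes past 2-fold from 139 higher and 56 lower to 80 and 93. No paired analysis was possible because each group has 1 array. What the arrays limit is the faint side, since 1 probe of each gene was not well above background in the LN pool.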

Other observations

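The authors' table of normalized values covers 30027 probes, and of the 4 probes of *UCP2* and *UCP3* it holds 1, A_73_P044391 of *UCP2*. The *UCP3* probe A_73_108686 is among 613 of 30639 probes that were well above background on both arrays and have no row in the table used here. Of these 613 probes, 19 were past 2-fold between the pools, and A_73_108686 had the largest fall of them. Which rule left these probes out is not given in the sources used here.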
